A study of Mus musculus with 61 samples.

Results

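Somites are the paired blocks of paraxial mesoderm that form beside the neural tube and later give rise to vertebrae, dermis and skeletal muscle. The unsegmented presomitic mesoderm first switches on Meox1 and Tcf15, the somite then divides into a rostral and a caudal compartment, and under hedgehog signals its ventral part becomes sclerotome while its dorsal part becomes dermomyotome. Muscle precursors of the dermomyotome express Pax3 and are committed to the muscle fate by the basic helix-loop-helix factors Myf5 and Myod1. The expression of 10 genes that mark these steps was followed here in stembryos, aggregates of mouse embryonic stem cells (also called gastruloids) that elongate after a pulse of the Wnt agonist Chiron, an inhibitor of GSK-3, and form tissues of the posterior body axis. The 10 members were the rows of the expression table whose gene name equals Meox1, Tcf15, Foxc2, Pax3, Uncx, Tbx18, Pax1, Pax9, Myf5 or Myod1, out of 55052 genes. The rule itself uses gene names alone. Of the 10 members, 8 reached a mean of 1 FPKM (sequenced fragments divided by transcript length in kilobases and by the size of the library) in at least 1 condition and entered the tests, as did 17098 genes in all. Myf5 and Myod1 did not, so the muscle side of the list was barely measured and is described mainly by its raw levels.

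The series held 61 libraries of polyadenylated RNA from pooled stembryos, in 28 conditions. A wild-type time course had 2 libraries per stage, taken 72, 84, 96, 108, 120, 132, 144 and 168 h after aggregation. Wild-type stembryos outside the time course were the controls of the mutants, with 4 libraries for 96 h, 4 for 120 h and 2 for 144 h. All mutants were homozygous in the HoxD region. Del(CBS1), Del(CBS2), Del(CBS4), Del(CBS1-2) and Del(CBS1-5) lacked 1 or several CTCF-binding sites. Del(d1-d4) lacked the segment from Hoxd1 to Hoxd4, and Del(sub-TAD1) lacked the adjacent regulatory domain together with Mtx2, which a fosmid transgene replaced. Ins(2xCBS-d4d8) carried a cassette with added CTCF sites beside CBS1. Each mutant had 2 libraries per stage, except Del(sub-TAD1) with 3 at 96 h, and was studied at 96 h and 120 h, with Del(CBS4) at 120 h and 144 h only and Del(CBS1-5) at all 3 stages. The lines limit the comparisons, because each mutant was a clone or a separately derived line. Del(CBS1-2) was made on Del(CBS1) cells, and Del(CBS1-5) and Del(sub-TAD1) cells came from blastocysts of mutant mice of another strain background than the wild-type cells. From 108 h on only elongating, non-apoptotic stembryos had been collected.

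Judged by the steps of the FPKM values, the shallowest library held 15.1 megafragments and the deepest 38.9, around a median of 24.05. The 61 libraries fell into a set of 28 and a set of 33, split by a mitochondrial gene: mt-Co3 stood at 995 to 1718 FPKM in the first and at 0.338 to 2.76 FPKM in the second. They also differed in genes at 1 FPKM or more (13249 to 13878 against 11304 to 12386) and in summed FPKM (605412 to 657594 against 461923 to 551878). Of the low values used to infer depth, 76.8% to 81.3% fell on whole fragments in the first set and 97.5% to 98.4% in the second, so depth is less certain in the first. Library replicate 4 of the wild type at 96 h and at 120 h, all 144 h libraries, the whole wild-type series of stages, both stages of Del(CBS4), Ins(2xCBS-d4d8), and Del(sub-TAD1) at 96 h were in the second set. The main comparisons of the 5 other mutants, and of Del(sub-TAD1) at 120 h, therefore used 3 controls of their own set and 1 of the other. Those of Ins(2xCBS-d4d8), of Del(CBS4) at 120 h and of Del(sub-TAD1) at 96 h used 1 control of their own set and 3 of the other. Calls that were lost or gained against the wild-type libraries of a mutant's own set, time course included, are given below. As a check of the labels, Hoxd1, Hoxd3 and Hoxd4 were listed at 0 in all 4 Del(d1-d4) libraries and Mtx2 stood at 19.2 to 25.3 FPKM in the 5 Del(sub-TAD1) libraries, where the transgene supplies it and the gene checks nothing. The study describes its replicates as biological and its samples as independent, without saying for each library which culture it came from. The p-values measure the spread between these libraries, and in such bulk samples fewer cells of a type cannot be told apart from less RNA per cell.

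RefSeq promoter sequences (build GRCm38.p6) were listed for 5 of the 10 members, Uncx, Tbx18, Pax1, Pax9 and Myf5, and none were listed for Meox1, Tcf15, Pax3, Foxc2 and Myod1. The 250 bases before 1 annotated start are printed for Pax1 and Pax9, the sclerotome pair, and for Uncx and Tbx18, which mark the caudal and the rostral part of a somite. Pax1 and Pax9 were both called higher in 1 mutant. In another both lay below the controls without a call, and in others they parted. Capitals mark the E-box, CANNTG, the sequence read by basic helix-loop-helix factors such as Tcf15, Myf5 and Myod1, and the CCAAT box, CCAAT on either strand. The matches did not overlap. By the coordinates used here, the Pax1, Pax9 and Uncx windows lie inside the listed gene, downstream of its first base, and the Tbx18 window lies just before its gene. Each window stands for 1 start only, while these genes have 2 or 3 annotated transcripts. An E-box lay in 66.2% and a CCAAT box in 33.8% of all 32851 listed windows of this length.
Pax1, chr2:147364744-147364993, plus strand: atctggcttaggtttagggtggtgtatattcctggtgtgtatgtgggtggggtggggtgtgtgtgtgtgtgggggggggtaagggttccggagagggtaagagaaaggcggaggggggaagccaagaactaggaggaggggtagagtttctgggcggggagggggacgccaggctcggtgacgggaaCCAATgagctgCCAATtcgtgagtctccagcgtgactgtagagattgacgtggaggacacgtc
Pax9, chr12:56695221-56695470, plus strand: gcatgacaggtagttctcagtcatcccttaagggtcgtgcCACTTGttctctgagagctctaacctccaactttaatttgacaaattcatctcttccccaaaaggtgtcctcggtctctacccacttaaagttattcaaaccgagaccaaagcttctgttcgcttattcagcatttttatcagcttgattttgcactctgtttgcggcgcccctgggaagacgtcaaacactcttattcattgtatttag
Uncx, chr5:139543648-139543897, plus strand: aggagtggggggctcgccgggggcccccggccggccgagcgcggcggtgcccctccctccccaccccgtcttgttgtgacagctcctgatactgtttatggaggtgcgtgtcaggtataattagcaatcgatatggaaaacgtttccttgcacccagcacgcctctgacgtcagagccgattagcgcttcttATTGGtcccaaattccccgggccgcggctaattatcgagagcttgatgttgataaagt
Tbx18, chr9:87731261-87731510, minus strand: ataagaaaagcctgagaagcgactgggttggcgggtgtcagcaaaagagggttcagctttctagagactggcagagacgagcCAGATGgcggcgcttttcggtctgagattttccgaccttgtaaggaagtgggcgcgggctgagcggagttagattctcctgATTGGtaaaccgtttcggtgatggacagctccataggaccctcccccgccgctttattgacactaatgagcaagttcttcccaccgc

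The Pax1 window held 2 CCAAT boxes, 63 and 52 bases before the start, and no E-box, and the Pax9 window held 1 E-box, 210 bases before it, and no CCAAT box. The Uncx window had 1 CCAAT box at 58 bases, and the Tbx18 window had 1 at 87 bases and an E-box at 168 bases. Neither pair shared its arrangement of these letters within the window. GC content was 58.8% for Pax1, 43.6% for Pax9, 58.4% for Uncx and 54.0% for Tbx18, against a median of 52.4% over all windows. The Tbx18 window overlaps an exon of the opposite-strand gene D030062O11Rik, which was listed at 0 in every library.

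The first question was when each member came on in the wild-type time course. The members rose in an order that runs from paraxial mesoderm to somite compartments to sclerotome. A member was counted as on once each of its 2 libraries had 1 FPKM or more. Tcf15 was on at 72 h, Meox1 and Foxc2 at 84 h and Pax3 and Tbx18 at 96 h. Uncx followed at 108 h, and Pax1 with Pax9 at 120 h. Myf5 and Myod1 reached 1 FPKM in no library. The largest joint step was from 84 h to 96 h, when 7 of the 8 tested members rose (limma, adjusted p under 0.05), against 8.16% of all genes. Their median change was +4.25 on the log2(FPKM + 0.1) scale, against -0.01 over all genes tested. A log2 difference against a stage near 0 depends on the added 0.1 FPKM and bounds nothing.

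**Figure D1:**
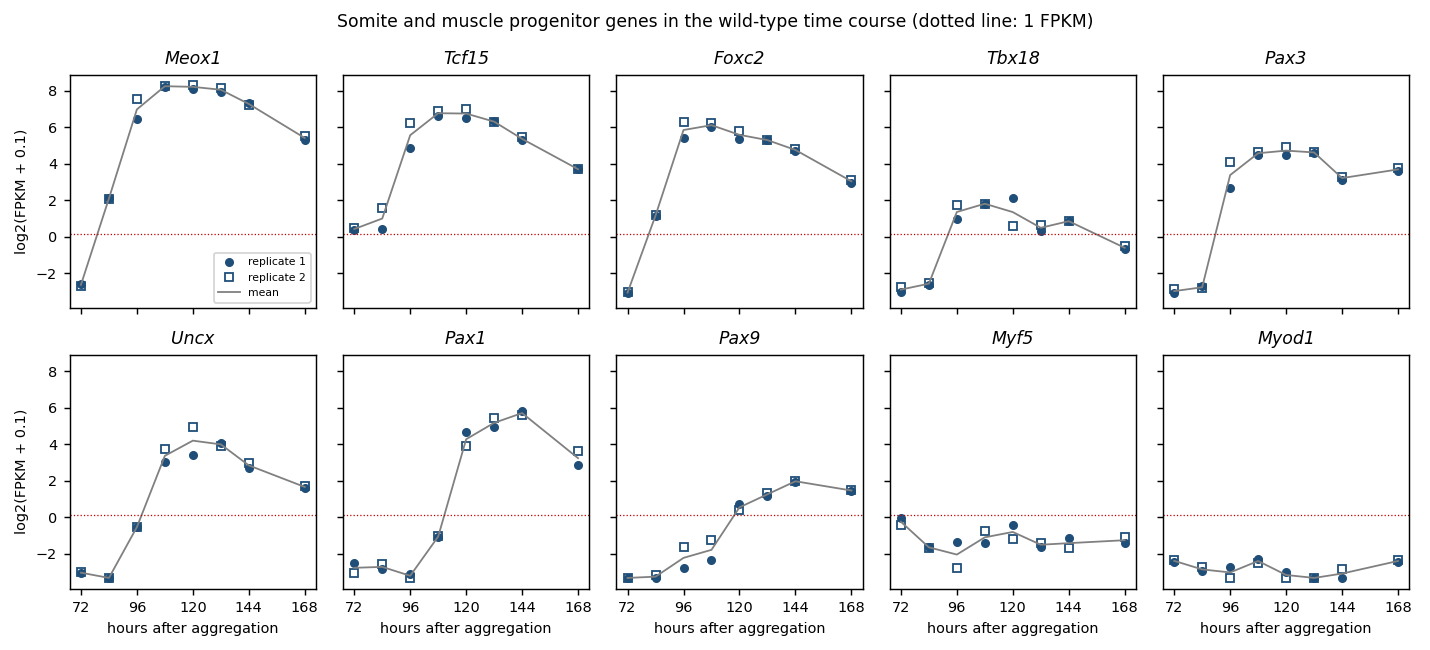
Expression of the 10 members in the wild-type time course, as log2(FPKM + 0.1) against hours after aggregation; filled circles are replicate 1, open squares replicate 2, and the line joins the stage means. Meox1, Tcf15 and Foxc2 climb first and fall after 108 h to 132 h, Pax1 and Pax9 climb from 108 h to 144 h, and Myf5 and Myod1 stay under the dotted line at 1 FPKM.

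Meox1 (ENSMUSG00000001493, mm10 chr11:101877510-101894374, minus strand), a homeobox gene needed for somites to differentiate, was the most abundant member at every stage from 84 h on. Its 2 libraries stood at 0.0684 and 0.0545 FPKM at 72 h, 4.25 and 4.13 at 84 h, and 86.5 and 186 at 96 h. They reached 299 and 314 FPKM at 108 h and 280 and 319 at 120 h. After 250 and 286 at 132 h and 161 and 151 at 144 h, they ended at 39.9 and 45.7 FPKM at 168 h. The replicates of each stage up to 108 h were clear of those of the neighbouring stages, while those of 108 h, 120 h and 132 h overlapped in part. The rises at 84 h (+4.73 ± 0.35 (SE), limma adjusted p = 1.21e-12), 96 h (+4.89 ± 0.35, adjusted p = 1.11e-12) and 108 h (+1.27 ± 0.35, adjusted p = 0.0166) and the fall at 168 h (-1.87 ± 0.35, adjusted p = 0.000329) passed the test. The 108 h step rested on single libraries: its adjusted p was 0.299 without replicate 1 of 96 h and 0.0769 and 0.106 without either 108 h library. From 96 h on, Meox1 made up 45.6% to 82.4% of the summed FPKM of the 10 members in the 57 libraries, with a median of 59.1%.

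Tcf15 (paraxis, ENSMUSG00000068079, chr2:152143561-152149097, plus strand), which makes somites epithelial, was the only member above 1 FPKM in all 61 libraries. It stood at 1.17 and 1.32 FPKM at 72 h and at 1.24 and 2.9 at 84 h, and reached 29.5 and 76.3 FPKM at 96 h. It then stayed at 99.3 and 121 FPKM at 108 h and 91.8 and 128 at 120 h, before 80.1 and 79.1 at 132 h, 39.0 and 43.7 at 144 h and 13.1 and 12.8 at 168 h. The step at 96 h passed the test (+4.57 ± 0.57, limma adjusted p = 1.39e-07), whereas the 168 h step had -1.66 ± 0.57 at an adjusted p of 0.0566, although the libraries of 144 h and 168 h did not overlap. Onset moves to 96 h for Tcf15 if 2 FPKM is required.

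Foxc2 (ENSMUSG00000046714, chr8:121116171-121118895, plus strand), a forkhead gene of paraxial mesoderm, came on with Meox1 and was highest on average at 108 h. Its libraries had 0.0183 and 0.0220 FPKM at 72 h, 2.10 and 2.19 at 84 h, 42.3 and 79.1 at 96 h and 64.3 and 75.3 at 108 h. The later values were 41.1 and 56.4 FPKM at 120 h, 39.6 and 39.2 at 132 h, 25.6 and 28.6 at 144 h and 7.64 and 8.71 at 168 h. The rises at 84 h (+4.22 ± 0.33) and 96 h (+4.69 ± 0.33) and the fall at 168 h (-1.72 ± 0.33) passed the test, with limma adjusted p-values of 3.82e-12, 6.71e-13 and 0.000399.

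Pax3 (ENSMUSG00000004872, chr1:78101267-78197134, minus strand), the dermomyotome gene of muscle precursors that the dorsal neural tube also uses, was at most 0.0514 FPKM in the 4 libraries of 72 h and 84 h. It rose to 6.36 and 16.8 FPKM at 96 h (+6.15 ± 0.64, limma adjusted p = 3.66e-09), the largest log2 step of any member at that stage, and stayed between 22.7 and 30.7 FPKM in the 6 libraries from 108 h to 132 h. At 144 h it had 8.72 and 9.76 FPKM and at 168 h 12.2 and 13.6, so that all 168 h values lay above those of 144 h, but neither step passed the test (adjusted p = 0.237 and 0.824). Summed markers of the spinal cord went from 110 to 126 FPKM at 144 h to 293 to 306 FPKM at 168 h. Their part in the late Pax3 level was not tested.

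Uncx, a homeobox gene of the caudal somite compartment (ENSMUSG00000029546, chr5:139543494-139548179, plus strand), reached 1 FPKM later than Tbx18, a T-box gene of the rostral compartment (ENSMUSG00000032419, chr9:87702800-87731260, minus strand). That order holds at this level only: both came on at 96 h if 0.5 FPKM is required and at 108 h if 2 FPKM is. Uncx was listed at 0 in both 84 h libraries and stood at 0.584 and 0.595 FPKM at 96 h (+2.79 ± 0.75, limma adjusted p = 0.00618). It rose to 8.02 and 13.1 FPKM at 108 h (+3.91 ± 0.75, limma adjusted p = 0.000592). Tbx18 had already reached 1.88 and 3.24 FPKM at 96 h (+3.93 ± 0.74, limma adjusted p = 0.000136) and never exceeded 4.21 FPKM in the time course. The 2 libraries of 120 h disagreed in opposite ways for this pair: replicate 1 had 10.7 FPKM of Uncx and 4.21 of Tbx18, and replicate 2 had 31.3 FPKM of Uncx and 1.42 of Tbx18. Over all 22 libraries of 120 h the ratio of Uncx to Tbx18 ran from 1.43 to 22.0 with a median of 5.84, against a median of 0.285 over the 21 libraries of 96 h. Uncx had 17.0 and 14.9 FPKM at 132 h, 6.52 and 7.74 at 144 h and 2.92 and 3.24 at 168 h, steps without overlap that did not pass the test (adjusted p = 0.485 and 0.412), and Tbx18 ended at 0.521 and 0.599 FPKM.

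Pax1 (ENSMUSG00000037034, chr2:147361925-147375053, plus strand) and Pax9 (ENSMUSG00000001497, chr12:56691767-56712822, plus strand) are paired-box genes of the sclerotome, the future vertebrae. Pax1 was at most 0.0758 FPKM up to 96 h, reached 0.365 and 0.398 FPKM at 108 h and then 25.1 and 15.0 at 120 h, a step of +5.34 ± 0.34 (limma adjusted p = 7.63e-13). It went on to 30.5 and 43.0 FPKM at 132 h and 56.8 and 48.6 at 144 h, and dropped to 7.14 and 12.3 FPKM at 168 h (-2.47 ± 0.34, limma adjusted p = 2.99e-06). Pax9 followed at a much lower level, with 1.54 and 1.21 FPKM at 120 h (+2.33 ± 0.35, limma adjusted p = 2.8e-05) and 3.74 and 3.94 FPKM at 144 h. Unlike Pax1 it showed no called fall at 168 h, where it had 2.61 and 2.74 FPKM (-0.51 ± 0.35, adjusted p = 0.46), below both 144 h libraries.

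Myf5 (ENSMUSG00000000435, chr10:107482908-107486134, minus strand) and Myod1 (ENSMUSG00000009471, chr7:46376474-46379099, plus strand) were almost silent in the wild type. Myf5 was highest at 72 h, before any somite gene but Tcf15 was on, at 0.859 and 0.645 FPKM, which corresponds to 35 and 22 inferred fragments. It stood at 0.275 and 0.369 FPKM at 168 h. Across all 61 libraries Myf5 had 2 to 35 fragments with a median of 12. Myod1 was at or under the floor of 3 fragments in 58 of 61 libraries and listed at 0 in 26, so most of its differences were not detectable at this depth. At 168 h it had 3 fragments in each library. Such a floor covers counting error only.

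Over the 7 steps of the time course, 14 of the 56 tests of members showed a rise and 3 a fall. At 84 h 2 of 8 members rose (10.4% of all genes did), at 108 h 3 (4.49%), at 120 h 2 (5.18%), at 132 h and 144 h none changed in either direction (2.46% and 5.42%), and at 168 h Meox1, Foxc2 and Pax1 fell (4.38%). At 132 h and 144 h, 2 and 3 members had an unadjusted p under 0.05 in limma. The ordering by level at 120 h was Meox1, Tcf15, Foxc2, Pax3, Uncx, Pax1, Tbx18, Pax9, Myf5 and Myod1, of which Pax3, Uncx and Pax1 did not differ from their neighbours beyond the range of the 2 libraries, nor did Tbx18 and Pax9.

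Other genes of the somite pathway were called most often at 96 h, as were all genes. Among 17 tested other genes of somites, dermomyotome and sclerotome, 13 rose (background 8.16%) and 1 fell (background 12.5%) at 96 h (median +1.54). At 168 h 1 rose (background 5.49%) and 5 fell (background 4.38%), with a median of -0.72. The highest of them over the time course, Aldh1a2, which makes retinoic acid in somites, differed by -3.72 on the log2 scale at 168 h from 96 h, and Pax7 and Nkx3-2, genes of muscle precursors and of sclerotome, by +3.47 and +3.46. Among 12 genes of the presomitic mesoderm and its segmentation clock, 7 rose at 84 h (background 10.4%), 1 stage ahead of most members, and at 168 h 6 fell (background 4.38%) and 1 rose. At 168 h against 96 h the differences were -8.00 for Msgn1, -7.25 for Tbx6, -7.18 for Ripply2 and -2.52 for the Notch ligand Dll1, the most abundant gene of this list. Muscle differentiation came last in the time course: of 10 tested genes 4 rose at 144 h (background 2.98%) and 5 at 168 h (background 5.49%). The list summed to 11.3 to 12.1 FPKM at 132 h and 33.4 to 57.1 FPKM at 144 h. Cardiac markers rose in the same libraries, from 9.72 to 10.1 FPKM to 52.4 to 83.8 FPKM. Outside the time course the muscle list summed to 8.31 to 9.83 FPKM at 120 h and 8.78 to 11.4 FPKM at 144 h. Myog, the factor that drives myoblast fusion and differentiation, went from 0.999 and 1.16 FPKM at 144 h to 3.49 and 4.62 FPKM at 168 h (+1.81 ± 0.36, limma adjusted p = 0.000535), embryonic myosin Myh3 from 0.0570 and 0.107 to 1.06 and 1.53 FPKM, and skeletal actin Acta1 from 0.259 and 0.936 to 3.71 and 3.78 FPKM. Myog was thus several times more abundant than Myf5 and Myod1 at 168 h.

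The wild-type stembryos outside the time course were compared between stages in the same way. From 96 h to 120 h 6 of 8 members rose (background 15.6%). The others were Foxc2 (-0.37 ± 0.23) and Tbx18 (+0.96 ± 0.53). Between 120 h and 144 h, Pax1 (+1.17 ± 0.30) and Pax9 (+0.97 ± 0.30) rose (background 18.0%) and Meox1, Tcf15, Pax3 and Foxc2 fell (background 20.2%). The largest fall was that of Pax3 (-2.18 ± 0.55, limma adjusted p = 0.00227). Stage and library set are mixed in this step. Replicates 1 to 3 of 120 h belong to the first set, and replicate 4 and both 144 h libraries to the second. The comparisons with the time course at 96 h and 120 h, given next, carry the same mix, as all its libraries belong to the second set. Compared with the time course at the same stage, no member was called at 96 h or 120 h (background 32.3% and 30.1%, 0 and 1 members at an unadjusted p under 0.05 in limma) and 1 at 144 h. Foxc2 then had 14.2 and 13.0 FPKM outside and 25.6 and 28.6 FPKM inside the time course (-0.99 ± 0.33, limma adjusted p = 0.0284; background 11.2%). That call was lost when any 1 of the 4 libraries was left out, with adjusted p-values of 0.0824 to 0.153.

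At 96 h the wild-type stembryos differed strongly among themselves, which sets how the mutants can be read. Replicate 3 was the lowest of the 4 libraries for all of the 6 members that reached 1 FPKM in any of them (Meox1, Tcf15, Foxc2, Pax3, Tbx18 and Uncx) and replicate 4 the highest for all 6. The summed FPKM of the 10 members was 199, 184, 110 and 348 in replicates 1 to 4. Tbx18 alone ran from 0.227 to 2.52 FPKM and Uncx from 0.0822 to 1.06 FPKM. The 3 Del(sub-TAD1) libraries of 96 h were spread as widely, with summed levels of 384, 156 and 120 FPKM and replicate 1 highest for all 6 members. In Ins(2xCBS-d4d8) replicate 1 was below replicate 2 for all 6 (65.1 against 160 FPKM). Each library was placed on the time course by 1000 genes that include no member and no Hox gene. The wild-type libraries of 96 h were placed at 91 h to 100 h, both Del(CBS1-2) libraries at 92 h and the Del(CBS1-5) libraries at 90 h and 91 h. The Del(CBS2) and Del(d1-d4) libraries were placed at 99 h or 100 h and the Del(CBS1) libraries at 93 h and 100 h. The Ins(2xCBS-d4d8) libraries were placed at 92 h and 100 h, and the Del(sub-TAD1) libraries at 91 h or 92 h, replicate 1 with its high levels included. The Del(CBS1-2) and Del(CBS1-5) libraries had summed member levels of 75.8 to 105 FPKM. Del(CBS1) had 103 FPKM in the library placed at 100 h and 119 FPKM in that placed at 93 h. The part of the placing in the member levels was not tested.

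**Figure D2:**
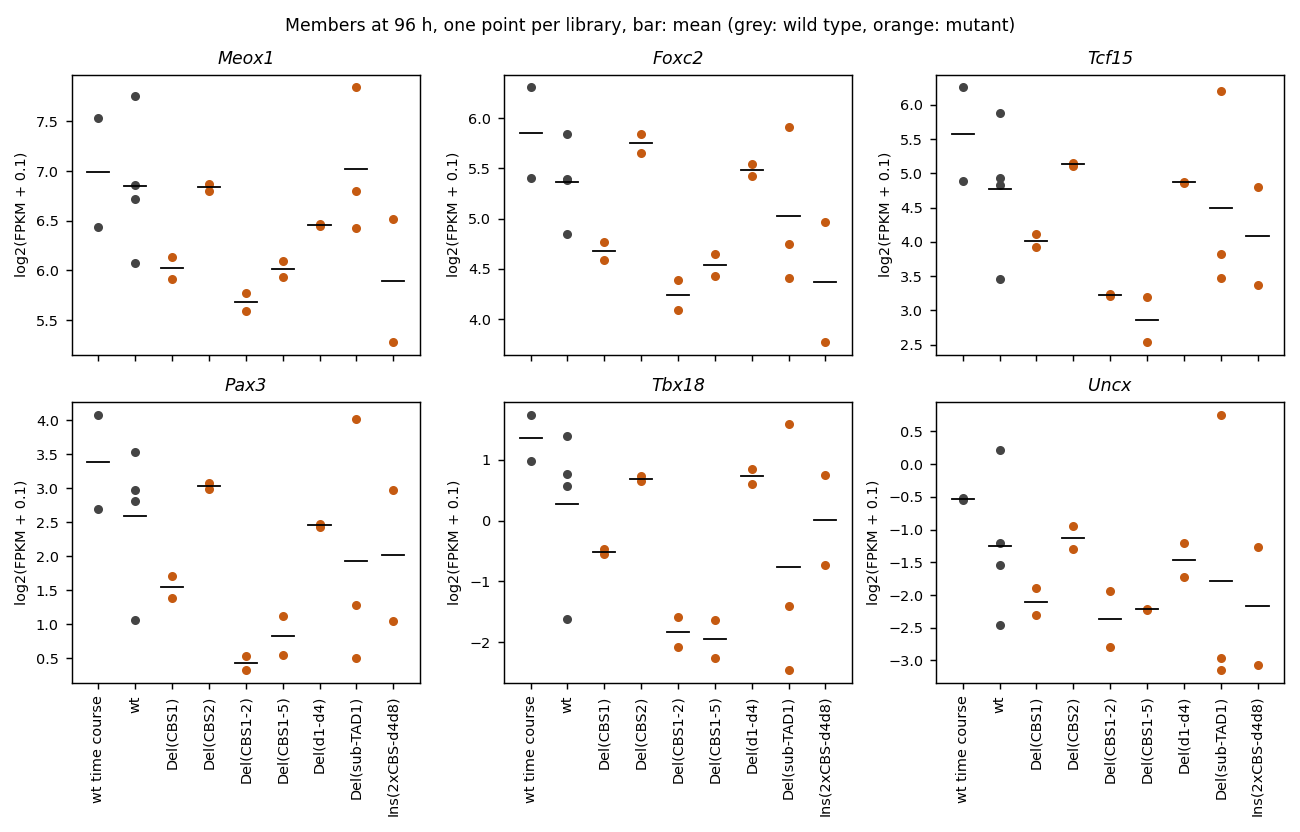
Levels of 6 members at 96 h by genotype, as log2(FPKM + 0.1), with 1 point per library and a bar at the mean; grey points are wild type and orange points mutants. Both Del(CBS1-2) libraries lie under all wild-type libraries for Meox1, Tcf15, Foxc2 and Pax3, and the wild-type points themselves spread widely, from 0.227 to 2.52 FPKM for Tbx18.

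In Del(CBS1-2) stembryos at 96 h, Meox1 stood at 54.4 and 48.2 FPKM, against 116, 105, 67.5 and 216 FPKM in the wild type. Both values lay under all 4 controls, and the difference was -1.17 ± 0.31 (limma adjusted p = 0.0222). Pax3 had 1.34 and 1.16 FPKM, against 7.74, 6.90, 1.98 and 11.5 in the wild type (-2.17 ± 0.55, limma adjusted p = 0.0198). Foxc2 had 20.8 and 16.9 FPKM, against 41.8, 41.6, 28.8 and 57.3 (-1.13 ± 0.29, limma adjusted p = 0.0185), again with no overlap. These 3 of 8 members were called lower, against 2.47% of all genes, and the median over the 8 was -1.15 against 0.00 over all genes. Tbx18 (-2.11 ± 0.64) and Tcf15 (-1.55 ± 0.49) just missed the threshold (adjusted p = 0.0519 and 0.0621). None of the 3 calls held against the 3 wild-type libraries of the same set, where adjusted p-values were 0.109 to 0.202, and all 3 were lost without either mutant library (adjusted p = 0.125 to 0.276). Del(CBS1), from which this line was made, lay between: Meox1 had 60.3 and 70.3 FPKM and Pax3 2.51 and 3.19 FPKM there, and no member was called (background 1.23%, limma adjusted p of 0.196 or more, 2 members at an unadjusted p under 0.05). The direct comparison of Del(CBS1-2) with Del(CBS1) called none either, with no member at an unadjusted p under 0.05 (background 0.0175%).

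Del(CBS1-5) stembryos at 96 h had 4 of 8 members lower (background 6.38%, median of the members -0.90 against +0.04 over all genes). Tcf15 stood at 5.68 and 9.05 FPKM, against 30.3, 28.5, 10.9 and 58.9 FPKM in the wild type, all mutant values being lower (-1.91 ± 0.49, limma adjusted p = 0.00683). Tbx18 had 0.108 and 0.223 FPKM, against 1.61, 1.38, 0.227 and 2.52 (-2.23 ± 0.64, limma adjusted p = 0.016), so that the higher mutant library sat next to wild-type replicate 3. Both calls held against the controls of the same set (-1.55 and -1.86, adjusted p = 0.0337 and 0.0493). The calls of Pax3 (1.36 and 2.07 FPKM, -1.76 ± 0.55, limma adjusted p = 0.0269) and Foxc2 (21.5 and 25.0 FPKM, -0.83 ± 0.29, limma adjusted p = 0.0459) did not (adjusted p = 0.0871 and 0.218), and the Pax3 libraries overlapped with the wild type. Without mutant replicate 1 none of the 4 was called (adjusted p = 0.151 to 0.303). In these libraries the summed level of 6 pluripotency genes, such as Pou5f1 and Nanog, was 242 to 250 FPKM, against 32.0 to 118 FPKM in the wild type, with 5 of 6 higher (background 8.45%). Their part in the lower somite genes was not tested. Of the 17 other somite genes, 8 were lower in Del(CBS1-5) and 8 in Del(CBS1-2), none higher, and of the 12 presomitic genes 4 and 2 were lower.

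Ins(2xCBS-d4d8) at 96 h had lower Meox1 (38.6 and 91.5 FPKM, -0.96 ± 0.31, limma adjusted p = 0.0179) and Foxc2 (13.5 and 31.1 FPKM, -1.0 ± 0.29, limma adjusted p = 0.00890), 2 of 8 members beside a background of 15.7%. Both genes overlapped with the wild type through replicate 2, and without replicate 1 the differences were -0.34 and -0.40 with adjusted p-values of 0.624 and 0.501. Against the controls of its own set both calls held, and Tcf15 was called lower as well (-1.58 ± 0.49, limma adjusted p = 0.0346; background 5.52%). Del(sub-TAD1) at 96 h had higher Pax9 (0.351, 0.114 and 0.113 FPKM, against 0.0272 to 0.0933 FPKM in the wild type, +0.82 ± 0.26, limma adjusted p = 0.0134; background 21.8%), all of it below the 1 FPKM onset level and not called against the controls of its set (adjusted p = 0.266). Replicate 1 stood apart in its other members: Pax3 had 16.1, 2.34 and 1.32 FPKM and Tbx18 2.92, 0.276 and 0.0820 FPKM. Without that replicate, Tcf15, Uncx, Tbx18, Pax3 and Foxc2 were all called lower in Del(sub-TAD1), by 0.78 to 2.21 on the log2 scale, beside a background of 17.5%. With all 3 replicates and the controls of their own set, Tbx18 (-2.13 ± 0.57, limma adjusted p = 0.00987) and Pax3 (-1.50 ± 0.50, limma adjusted p = 0.0403) were called lower, although both overlapped with the wild type (background 5.37%). Del(CBS2) and Del(d1-d4) had no member called at 96 h (background 0.298% and 1.19%, limma adjusted p of 0.498 or more) and none at an unadjusted p under 0.05; Meox1, for instance, had 112 and 117 FPKM and 86.9 and 88.3 FPKM there, inside the wild-type range.

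Over the 7 mutants 9 of 56 tests were lower (background 6.30%) and 1 higher (background 6.53%). Without wild-type replicate 3 the lower calls rose to 14, and without wild-type replicate 4 they fell to 2. Without Del(sub-TAD1) replicate 1 they rose to 17, and with only the 2 compared groups in each fit none were left.

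The members called lower in Del(CBS1-2) and Del(CBS1-5) at 96 h were not called in these lines at 120 h. In Del(CBS1-2) the same genes stood at 256 and 253 FPKM (Meox1), 22.9 and 24.6 FPKM (Pax3) and 35.3 and 35.5 FPKM (Foxc2), against 280 to 350, 23.8 to 27.6 and 23.0 to 39.1 FPKM in the wild type. In Del(CBS1-5), Tcf15 had 98.6 and 100 FPKM and Tbx18 3.02 and 3.32 FPKM, inside the wild-type ranges of 67.0 to 104 and 1.56 to 3.43 FPKM. The differences at 120 h minus those at 96 h, tested as an interaction, were +2.7 ± 0.91 for Tbx18, +2.06 ± 0.69 for Tcf15 and +1.90 ± 0.78 for Pax3 in Del(CBS1-5) and +2.04 ± 0.78 for Pax3 in Del(CBS1-2), none past the threshold (limma adjusted p = 0.253, 0.253, 0.424 and 0.438). The backgrounds, shares of all genes past the adjusted threshold, were 0.257% and 0.175%. At an unadjusted p under 0.05 there were 5 and 7 of 8 members, a cut for which no share of all genes is given here. Of the 7 in Del(CBS1-2), Pax1 (-0.89 ± 0.42) and Pax9 (-1.03 ± 0.42) were negative and the rest positive. No member was called at 120 h in Del(CBS1), Del(CBS1-2), Del(CBS2), Del(CBS1-5), Del(d1-d4) or Ins(2xCBS-d4d8), against backgrounds of 2.10%, 2.35%, 0.193%, 13.3%, 1.85% and 26.9%. In limma 0, 2, 0, 0, 0 and 1 of their 8 members had an unadjusted p under 0.05. Against the controls of its own set, however, Pax1 was called lower in Ins(2xCBS-d4d8), with 12.2 and 9.12 FPKM against 26.4, 25.1 and 15.0 FPKM (-1.02 ± 0.30, limma adjusted p = 0.0439; background 2.88%). Over the 8 mutants of 120 h 2 tests were called higher (background 4.74%) and 2 lower (background 6.55%).

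The largest mutant difference of any member was that of Pax1 in Del(CBS4) at 120 h. Its libraries had 1.96 and 0.483 FPKM, against 14.4, 15.6, 13.2 and 26.4 FPKM in the wild type outside the time course and 25.1 and 15.0 FPKM inside it. Both mutant values were below all 6 wild-type values, and the difference was -3.94 ± 0.30 (limma adjusted p = 7.71e-12), or -4.30 against the controls of the same set. The error of ± 0.30 pools the spread of all 28 conditions, and Pax1 reached 1 FPKM in only 33 of 61 libraries. It may therefore understate the spread at 120 h. With only the 2 groups in the fit the adjusted p of Pax1 was 0.0778. At 144 h the same line had 45.1 and 52.1 FPKM, against 39.9 and 35.7 FPKM in the wild type (+0.36 ± 0.34, adjusted p = 0.807), so that the difference changed by +4.30 ± 0.45 between the stages (interaction, limma adjusted p = 5.32e-08; background 4.84%). Pax9, with 1.70 and 1.42 FPKM against 1.35, 1.30, 2.11 and 3.73 FPKM at 120 h, overlapped with the wild type (-0.30 ± 0.30, adjusted p = 0.467). The ratio of Pax1 to Pax9 was 1.15 and 0.341 in Del(CBS4) at 120 h, with a median of 10.2 over the 34 libraries of 120 h and later.

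Meox1 was also lower in Del(CBS4) at 120 h (213 and 152 FPKM against 280, 287, 350 and 318, -0.77 ± 0.31, limma adjusted p = 0.0441), a call not kept against the controls of its set (adjusted p = 0.0854). All 8 members had a difference below 0 there, with a median of -0.70 against -0.01 over all genes, but 22.2% of all genes were called lower in this comparison, and 2 of 8 members is close to that. That share depends on the controls. In either direction 37.5% of all genes were called with the main controls and 12.4% with those of the same set. Pax1 kept its call there and Meox1 did not. Replicate 2 was the lower library for Meox1, Tcf15, Foxc2, Pax3, Tbx18 and Uncx, and the 2 libraries were placed at 114 h and 128 h of the time course. Of the 17 other somite genes 7 were lower and 1 higher, the sclerotome gene Nkx3-2 among the lower (0.271 to 0.509 FPKM against 0.930 to 1.21 FPKM), and of the 12 presomitic genes 7 were lower. Shh, which induces sclerotome from the notochord and floor plate, was listed at 0 in both Del(CBS4) libraries and stood at 0.0313 to 0.262 FPKM in the wild type (-1.11 ± 0.50, adjusted p = 0.0802). Markers of the spinal cord went the other way, 5 of 6 being higher (background 15.2%) and 1 lower, with a summed level of 172 to 249 FPKM against 39.6 to 66.7 FPKM, and endoderm markers summed to 3.98 to 4.97 FPKM against 7.44 to 27.1 FPKM. Their part in the lower Pax1 was not tested.

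**Figure D3:**
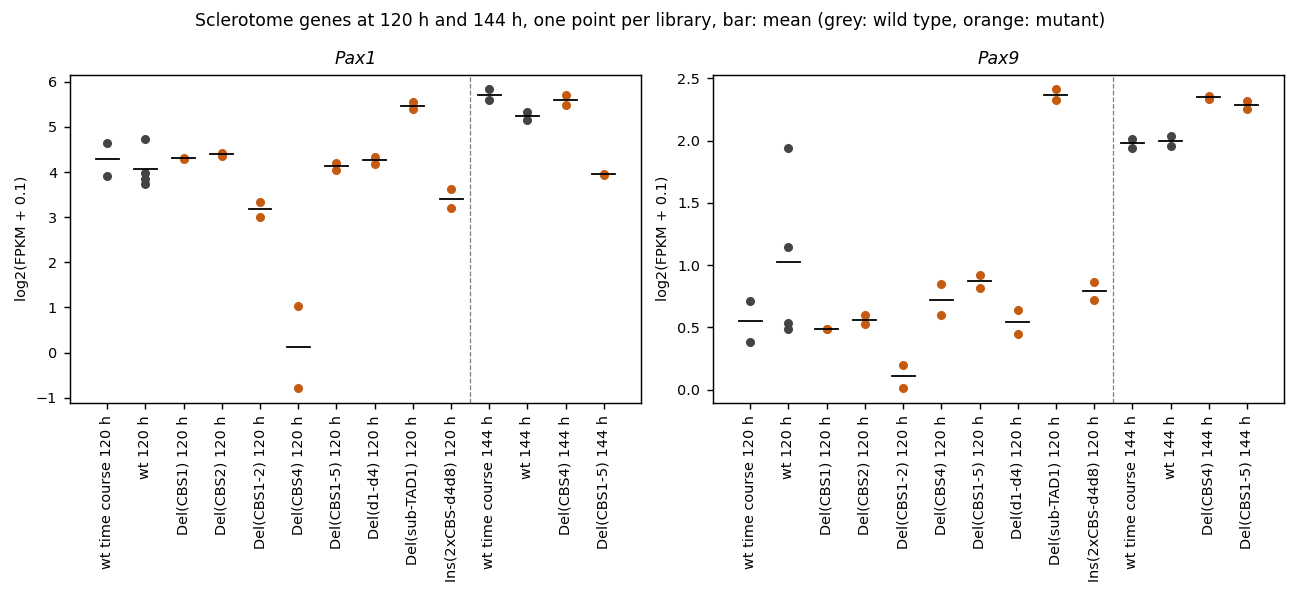
Pax1 and Pax9 at 120 h (left of the dashed line) and 144 h (right of it) by genotype, as log2(FPKM + 0.1), with 1 point per library and a bar at the mean; grey points are wild type and orange points mutants. Pax1 in Del(CBS4) lies far under every other group at 120 h, at 1.96 and 0.483 FPKM, and inside the wild-type range or just above it at 144 h, while Del(sub-TAD1) is the highest group of 120 h for both genes.

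In Del(sub-TAD1) at 120 h both sclerotome genes were higher. Pax1 had 46.6 and 41.8 FPKM, against 14.4, 15.6, 13.2 and 26.4 FPKM in the wild type (+1.40 ± 0.30, limma adjusted p = 0.00254), and Pax9 had 4.92 and 5.22 FPKM, against 1.35, 1.30, 2.11 and 3.73 FPKM (+1.34 ± 0.30, limma adjusted p = 0.00415). Both genes were above every wild-type library of 120 h, time course included, and close to the wild-type level of 144 h. These 2 of 8 members stood beside a background of 3.33%, while the median over the members was 0.00 against +0.04 over all genes. Meox1, Tcf15, Pax3, Foxc2 and Uncx differed by between -0.62 and +0.12. Tbx18 was not called, but its 4.76 and 4.26 FPKM lay above the 1.56 to 3.43 FPKM of the controls (+0.97 ± 0.64, limma adjusted p = 0.434). The calls of Pax1 and Pax9 held against the controls of the same set (+1.61 and +1.65). Their errors too pool all 28 conditions, and each gene reached 1 FPKM in only 33 of 61 libraries. Leaving out replicate 1 of the mutant gave adjusted p-values of 0.0748 for Pax1 and 0.0597 for Pax9, leaving out replicate 2 gave 0.0806 for Pax9, and with only the 2 groups in the fit they were 0.213 and 0.415. At 96 h no mutant or wild-type library held more than 0.0420 FPKM of Pax1, so the change of its difference between the stages restates that of 120 h (interaction +1.26 ± 0.40, limma adjusted p = 0.0186, background 15.3%; 0.0587 without replicate 2 of 96 h and 0.0866 without replicate 1 of 120 h). The mutant libraries of 96 h and 120 h also belong to different library sets, which cannot be told apart from the stage.

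Other sclerotome and hedgehog genes rose in the same libraries. Of the 17 other somite genes 3 were higher and none lower, among them Nkx3-2 and Sox9, which pattern sclerotome and cartilage (Sox9 was named after its values were seen). Nkx3-2 had 2.46 and 2.63 FPKM against 0.930 to 1.21 FPKM (+1.15 ± 0.20, limma adjusted p = 0.000244). Of the 7 hedgehog and BMP signal genes 4 were higher, among them the ligand Shh, at 0.697 and 1.18 FPKM against 0.0313 to 0.262 FPKM (+2.23 ± 0.50, limma adjusted p = 0.00435), and Hhip, a target that binds the ligand, at 0.384 and 0.472 FPKM against 0.0378 to 0.222 FPKM (+1.34 ± 0.28, limma adjusted p = 0.00201). Endoderm markers moved with them, 5 of 6 being higher, and summed to 37.5 to 46.3 FPKM against 7.44 to 27.1 FPKM. In Del(CBS1) at 120 h, 3 of 7 hedgehog and BMP signal genes and 4 of 6 endoderm markers were higher (background 1.29%). Pax1 had 19.8 and 19.5 FPKM there (+0.23 ± 0.30, limma adjusted p = 0.685). The part of these genes in the sclerotome values was not tested in either line.

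At 144 h Del(CBS1-5) was the mutant with changed members. Meox1 had 291 and 298 FPKM, against 125 and 120 FPKM in the wild type (+1.26 ± 0.35, limma adjusted p = 0.00723; background 15.5%), a level like that of the wild type at 120 h, and Pax1 had 15.5 and 15.2 FPKM, against 39.9 and 35.7 FPKM (-1.29 ± 0.34, limma adjusted p = 0.00457; background 8.18%). In both cases the 2 mutant and the 4 wild-type libraries of 144 h, time course included, did not overlap, and the calls held with all 4 as controls (+1.09 and -1.53). The mutant libraries were placed at 137 h and 138 h of the time course and both controls outside it at 157 h. With 300 genes the median placing was 137 h for the mutant and 125.5 h for these controls. The part of the placing in these differences was not tested. Foxc2 was then lower as well (7.75 and 10.3 FPKM, -1.10, adjusted p = 0.00832; background 10.8%). The call of Meox1 was at the threshold without wild-type replicate 2 (adjusted p = 0.0514). No other member was called against the 2 controls. Uncx had 2.24 and 2.98 FPKM against 4.31 and 3.44 FPKM, below both controls (-0.56 ± 0.75, adjusted p = 0.722), and below all 4 with the time course included (-0.99 ± 0.62, adjusted p = 0.241). Pax9 had 4.89 and 4.66 FPKM against 3.99 and 3.78 FPKM (+0.29 ± 0.35, adjusted p = 0.671), above the controls where Pax1 was below them. Tcf15 had 23.8 and 22.4 FPKM against 23.0 and 22.2 FPKM, and Pax3 6.28 and 4.78 FPKM against 4.83 and 6.60 FPKM. Del(CBS4) at 144 h had no member called (background 2.05%, limma adjusted p of 0.314 or more, 1 member at an unadjusted p under 0.05).

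Muscle genes rose in the Del(CBS1-5) libraries of 144 h, and this was the condition in which Myod1 was best detected. Myod1 had 0.405 and 0.603 FPKM, or 13 and 21 fragments, against 0.0463 and 0 FPKM, or 2 and 0 fragments, in the wild type of that stage. No other library of the 61 held more than 4 fragments. Myf5 had 0.771 and 0.507 FPKM, or 28 and 20 fragments, against 0.143 and 0.0968 FPKM, or 7 and 4 fragments. The wild-type libraries of the time course at 144 h, with 0.357 and 0.208 FPKM, were also below both. In the fit without a filter on low values both genes were called higher (Myf5 +1.73 ± 0.33, limma adjusted p = 0.000196), beside a background of 9.74%. These tests depend on the 0.1 FPKM added to levels this low. Myod1 was at or under 3 fragments in 58 of 61 libraries, so its spread in the fit comes mostly from libraries near the floor. No p-value or fold is therefore given for Myod1, whose controls were under the floor of 3 fragments. At 120 h the same line had Myf5 at 0.189 and 0.121 FPKM and no Myod1 fragment.

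Of the 10 tested muscle differentiation genes 9 were higher in these libraries and none lower, beside a background of 15.5%, with a median of +2.51 against +0.03 over all genes. Myog had 10.5 and 12.4 FPKM, against 0.738 and 1.39 FPKM in the wild type (+3.36 ± 0.36, limma adjusted p = 5.49e-09), above the 3.49 and 4.62 FPKM of the time course at 168 h. Myh3 had 2.30 to 2.63 FPKM against 0.310 to 0.462 FPKM (+2.42 ± 0.17, limma adjusted p = 3.25e-13), and Acta1 1.40 and 1.41 FPKM against 0.471 to 0.521 FPKM (+1.34 ± 0.48, limma adjusted p = 0.0381). Actc1, the actin of embryonic and cardiac muscle, had 23.0 and 26.3 FPKM against 3.33 and 4.72 FPKM outside the time course but 24.6 and 49.1 FPKM inside it. Of 5 cardiac markers 4 were also higher than in the wild type outside the time course, with a summed level of 11.2 to 12.5 FPKM against 3.57 to 3.68 FPKM, but 52.4 to 83.8 FPKM in the time course at 144 h. Pluripotency genes summed to 290 to 300 FPKM in Del(CBS1-5) at 144 h, against 4.29 to 6.14 FPKM, with 5 of 6 higher and 1 lower, and spinal cord markers to 63.9 to 66.3 FPKM against 156 to 172 FPKM. Their part in the muscle values was not tested.

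**Figure D4:**
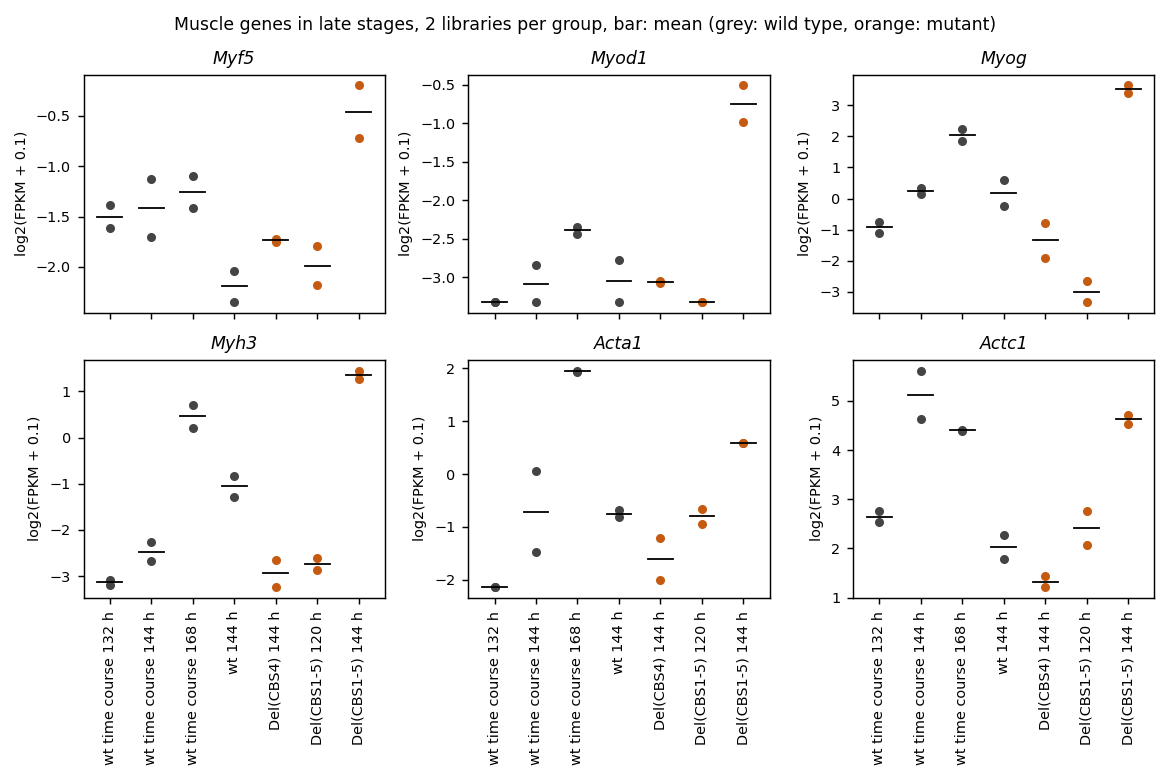
Myf5, Myod1 and 4 muscle differentiation genes in late stages, as log2(FPKM + 0.1), with 2 libraries per group and a bar at the mean; grey points are wild type and orange points mutants. Myf5, Myod1, Myog and Myh3 are highest in Del(CBS1-5) at 144 h, Myog at 10.5 and 12.4 FPKM, whereas Actc1 is as high in the time course at 144 h.

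Over all 17 mutant comparisons, 16 of 136 tests of members were called, 12 lower and 4 higher, in 7 of the comparisons. Over all genes 12.1% of these tests were called, so with these controls the members were called about as often as genes in general. The share of all genes moved with the controls. With those of the same library set it was 12.4% instead of 37.5% for Del(CBS4) at 120 h. For Del(CBS1-5) at 144 h it was 30.7% instead of 23.7%. No share over all 17 comparisons is given here for controls of the same set. Meox1 was called 4 times, Foxc2 and Pax1 3 times each, Pax3 and Pax9 2 times each, and Tcf15 and Tbx18 once each. Uncx was never called, with differences from -1.12 to +1.24 and the widest standard errors of the list. Of the 4 comparisons of Del(CBS1) and Del(CBS2), none called a member.

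**Figure D5:**
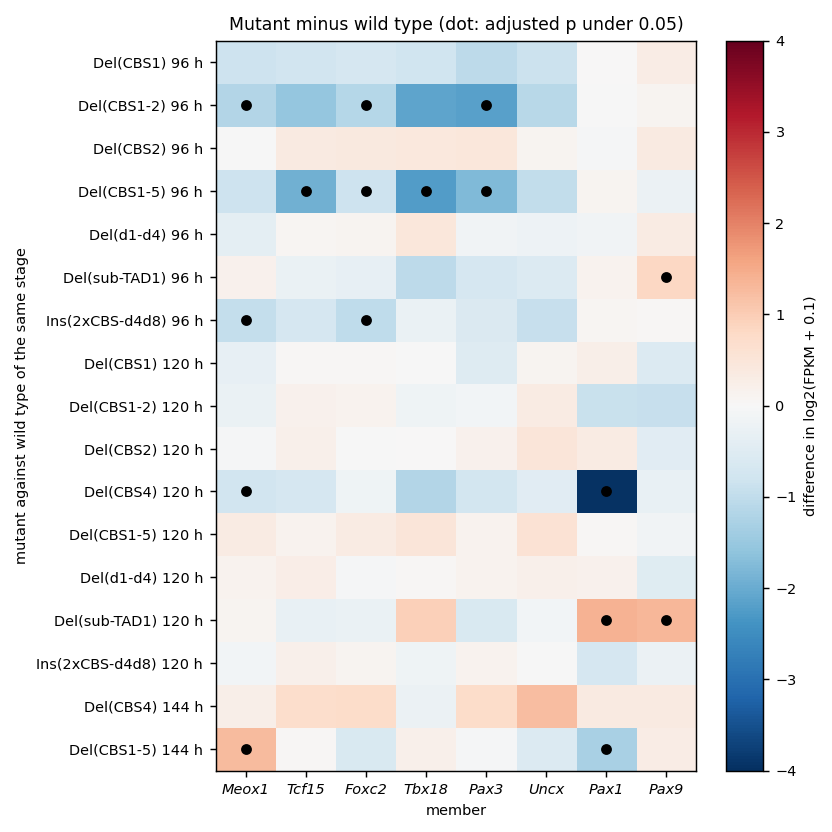
Difference between each mutant and the wild type of the same stage for the 8 tested members, in log2(FPKM + 0.1), red for higher and blue for lower; black dots mark an adjusted p under 0.05. The lower values gather at 96 h in Del(CBS1-2) and Del(CBS1-5), and the darkest cell is Pax1 in Del(CBS4) at 120 h, at -3.94.

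The members' patterns over the 28 condition means were compared as a description, with points that share libraries of the same 8 stages. Within the list, the sclerotome genes Pax1 and Pax9 were most like each other (Pearson r = 0.95), and Tcf15 was most like Pax3 (r = 0.96) and Tbx18 (r = 0.93). Pax1 and Foxc2 were least alike (r = 0.15). Outside the list, Dmrt2 was among the 3 genes most like Tcf15 (r = 0.97) and was the gene most like Pax3 (r = 0.98). Foxc2 was most like Foxc1 (r = 0.97), followed by Kif26b and Stra6. Uncx was most like Bmp3 (r = 0.99), Foxd2 and Pgm5, and Tbx18 came closest to Tcf15, Ripply1 (r = 0.91) and Efnb2. Meox1 was most like Atoh8 and Ncam1 (r = 0.93 each), Pax1 like Rxfp3, Rab3il1 and Kctd12 (r = 0.97 to 0.98), and Pax9 like Thbs1, Hsd11b2 and Adamts12 (r = 0.96 to 0.97).

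Opposite-strand genes overlap Meox1 (Gm11551), Pax1 (AI646519) and Pax9 (Gm15524 and Slc25a21), at no more than 1.83, 0.565, 2.91 and 0.339 FPKM in any library. The libraries were stranded, but the sources used here do not state that strand was used in the quantification, and without it reads of Pax9, whose own level never passed 5.22 FPKM, and Gm15524 cannot be told apart. Foxc2 also overlaps Gm20388 on the same strand, for which no value is given here.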

How the data were processed

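RNA was sequenced as stranded, polyadenylated, paired-end libraries of pooled stembryos. Per the study's methods, reads were trimmed with cutadapt and mapped to mm10 with STAR, and the deposited FPKM values were computed by the authors with Cufflinks on uniquely mapped reads and a modified Ensembl annotation. No counts were used, so depth was inferred from the steps of low FPKM values. The 10 members and the gene lists were chosen with earlier results of these data known. All 61 libraries and 28 conditions entered 1 limma fit (version 3.58.1, R 4.3.3) on log2(FPKM + 0.1) over the 17098 of 55052 genes with a condition mean of at least 1 FPKM. Benjamini-Hochberg adjustment was made over all genes tested within each comparison, with a threshold of 0.05, two-sided. Errors are standard errors of the fitted difference, from 1 spread per gene pooled over all 28 conditions. Named outside the members were the 3 genes most like each member over condition means, and in each list the most abundant gene of the time course and the 3 with the largest difference between 168 h and 96 h, not all of which are reported here; other names were chosen after their values were seen. Libraries were placed on the time course by least squares over its 1000 most variable genes, in steps of 1 h. Alternatives were another pseudocount, filter, scaling, set of controls and set of libraries. On simulated data for Del(CBS1) at 96 h (17098 genes), the test recovered 74 of 100 genes changed by 2 and 53 of 100 changed by 1 on the log2 scale, with 5 false among 132 calls. The simulation gave each gene 1 flat mean and independent normal noise in each library. It held no library sets and no shifts shared by genes, which the real libraries show, so these rates need not hold for them.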

Additional observations from a re-analysis of the deposited data

Results flagged for a closer look

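The effect of 2 mutants on Pax1 differed between stages by the test of the difference itself. For Del(sub-TAD1) the effect at 120 h exceeded that at 96 h by 1.26 ± 0.40 on the log2(FPKM + 0.1) scale (limma adjusted p = 0.0186), a comparison in which 15.3% of all genes were called higher. Pax1 was at most 0.0420 FPKM in mutant and wild type at 96 h, so this value restates the difference at 120 h, and the mutant libraries of the 2 stages belong to different library sets. For Del(CBS4) the effect at 144 h exceeded that at 120 h by 4.30 ± 0.45 (limma adjusted p = 5.32e-08; background 4.84%). Both errors pool the spread of all conditions, including those with Pax1 near 0.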

How the results depend on the processing

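No called member reversed its direction under any alternative that was run. With a pseudocount of 1 FPKM the calls of members at 96 h in mutants were 0 higher, those at 120 h 5 lower, and those of a change between stages 1 lower. Without a filter, and with upper-quartile scaling, 1 member was lower at 120 h; that scaling also gave 2 lower outside against inside the time course. When each fit held its own pair of groups alone, no member was called at 96 h or 120 h, 0 higher and 0 lower, and with controls of the same set 0 were higher at 96 h and 2 lower at 144 h. The replicate block gave 1 lower change between stages and changed no other member call; replicate numbers did not pair the libraries (median r 0.011 over 28 pairs of the time course and -0.007 over 34 pairs of mutants).

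Leaving out 1 library at a time gave 13 to 14 higher and 3 to 4 lower calls in the time course, 7 to 8 higher and 4 to 5 lower between wild-type stages, and 0 to 0 higher and 0 to 3 lower outside against inside it. In mutants it gave 0 to 1 higher and 2 to 17 lower at 96 h, 0 to 2 higher and 1 to 3 lower at 120 h, 0 to 1 higher and 1 to 1 lower at 144 h, and 1 to 5 higher and 0 to 1 lower for changes between stages. Onset moved to 96 h for Tcf15 and 108 h for Tbx18 and to 132 h for Pax9 at 2 FPKM, and to 96 h for Uncx at 0.5 FPKM. With 300 genes the mean placing was 125.5 h for the wild type at 144 h (157 h with 1000), 91.5 h and 124.5 h for Del(CBS1-2), and 96.5 h and 125 h for Del(d1-d4). The cause of these shifts was not tested. Depth limits Myod1, at or under 3 fragments in 58 libraries.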
